A study of Mus musculus with 2 samples.

Results

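Mir183, Mir96 and Mir182 are the 3 microRNA genes of the miR-183/96/182 cluster on mouse chromosome 6. They were taken by their GENCODE M21 symbols, matched through Ensembl identifiers, and are 3 of the 2202 microRNA genes counted in these data. All 3 had at least 10 counts in both libraries, as did 333 genes in all. Small RNA was sequenced from adrenal tissue of B6CASTF1/J males, F1 hybrids of the strains C57BL/6J and CAST/EiJ, that were 36 days old. There are 2 libraries, biological replicates 1 and 2, which the labels number separately while listing a single donor record for both. That they come from separate animals is inferred from those numbers. The labels give no treatment and no engineered allele, and whole-gland RNA mixes cortex, medulla, vessels and attached tissue. There is no second group, so the data describe levels and how far the libraries differ, with no comparison of conditions.

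The cluster is transcribed as a shared primary transcript, which Drosha and Dicer cut into hairpins and then into mature strands. A mature microRNA guides Argonaute to messenger RNAs that pair with its seed, bases 2 to 8 from the 5′ end. The cluster is best known from sensory organs, where it is abundant in hair cells of the inner ear, photoreceptors and other sensory neurons. Changes in the seed of miR-96 cause hearing loss in mice and people. It is also found in neuroendocrine tissue, and the adrenal medulla consists of neuroendocrine chromaffin cells.

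The mature 5p strands are shown first because their seeds set what each member can pair with. They come from RefSeq on GRCm38.p6, the assembly also called mm10, and are written 5′ to 3′ with the seed in capitals:
mmu-miR-183-5p: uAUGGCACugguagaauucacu
mmu-miR-96-5p: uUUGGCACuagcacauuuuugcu
mmu-miR-182-5p: uUUGGCAAugguagaacucacaccg
mmu-miR-1271-5p: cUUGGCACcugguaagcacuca

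No pair of members shares a whole seed. Counted from the 5′ end with miR-96-5p as the reference, the seed of miR-183-5p differs by U2A alone and that of miR-182-5p by C8A alone. The stretch UGGCA at bases 3 to 7 is common to all 3. Among 1738 mature mouse sequences of RefSeq, 5 (0.288%) hold those letters at that place: the 3 members, miR-1271-5p and miR-7022-5p. Read on the mature strand only, 47 (2.70%) hold them anywhere, the members included. Over the whole strand, seed included, miR-183-5p and miR-182-5p resemble each other most. They are identical at 18 of 22 aligned bases (81.8%), against 13 of 22 for miR-96-5p with miR-183-5p and 12 of 23 for miR-96-5p with miR-182-5p.

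The last sequence of the set is shown because its seed equals that of miR-96-5p. It comes from Gm24195 on chromosome 13 (mm10, 54578113 to 54578249), which had 0 counts in both libraries. Levels are given as CPM, the counts per 1000000 gene counts of a library. A count of 0 allows up to 3 counts, which is 0.667 CPM at the depth of replicate 1 and 1.44 CPM at that of replicate 2. On the 3p side, miR-96-3p shares its seed AAUCAUG with miR-3475-5p, whose gene Mir3475 had 12 and 3 counts in replicates 1 and 2. The 5p strands of Mir183 and Mir182, and their 3p strands, share a seed with no other RefSeq mature sequence.

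The hairpins are shown because the deposited counts are per hairpin gene and do not separate the strands. The 5p and 3p mature strands are in capitals:
Mir183 hairpin: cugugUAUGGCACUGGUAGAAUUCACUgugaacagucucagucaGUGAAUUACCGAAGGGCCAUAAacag
Mir96 hairpin: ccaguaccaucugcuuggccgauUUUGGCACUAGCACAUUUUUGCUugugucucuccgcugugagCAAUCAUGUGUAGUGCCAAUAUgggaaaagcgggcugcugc
Mir182 hairpin: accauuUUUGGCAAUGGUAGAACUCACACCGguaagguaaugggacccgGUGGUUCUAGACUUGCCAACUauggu

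All 3 lie on the minus strand of chromosome 6 in mm10. Mir183 (ENSMUSG00000065619.2) spans 30169668 to 30169737, Mir96 (ENSMUSG00000065586.1) 30169446 to 30169551 and Mir182 (ENSMUSG00000076361.1) 30165918 to 30165992. In the direction of transcription Mir183 comes first, Mir96 follows after 116 bases and Mir182 after a further 3453. No other annotated gene overlaps this interval of 3820 bases, so the hairpins are intergenic in GENCODE M21, with no exon, intron or UTR there. The closest genes are Rncr4, a long noncoding RNA gene on the opposite strand 3155 bases upstream of Mir183, and Nrf1, which encodes a transcription factor of mitochondrial and metabolic genes, 12459 bases beyond Mir182.

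The hairpins are 70, 106 and 75 bases long for Mir183, Mir96 and Mir182, with a GC content of 45.7%, 50.9% and 48.0%. The median over the 333 genes was 50.5%. The predicted folding energy was -26.2, -47.9 and -29.9 kcal/mol in the same order. Per base, the Mir96 hairpin (-0.452 kcal/mol) was more stable than the median of -0.433 over the 333 genes, and those of Mir183 (-0.374) and Mir182 (-0.399) were less stable. None of the 6 mature strands occurs in a transcript of another GENCODE M21 gene on either strand. The search was for exact matches of whole strands in transcripts. Shorter or mismatched matches, and matches outside transcripts, were not searched.

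Mir182 was the leading member in the adrenal gland, Mir183 stood 8.20-fold lower by mean CPM, and Mir96 was among the lower of the well-counted genes, 54.4-fold below Mir182. Mir182 had 3399 counts in replicate 1 and 1118 in replicate 2, equal to 756 and 538 CPM, or 647 ± 154 CPM (SD, n = 2). Mir183 had 400 and 143 counts, equal to 89.0 and 68.8 CPM, or 78.9 ± 14.3 CPM. Mir96 had 29 and 36 counts, equal to 6.45 and 17.3 CPM, or 11.9 ± 7.68 CPM. Replicate 1 was the higher library for Mir182 and Mir183, and replicate 2 for Mir96. Because a read covers a whole mature strand, these levels need no term for length.

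Counting error was small for Mir182 and large for Mir96. The exact Clopper-Pearson 95% interval of Mir182 was 731 to 782 CPM in replicate 1 and 507 to 570 CPM in replicate 2. For Mir183 the intervals were 80.5 to 98.2 and 58.0 to 81.0 CPM, which just overlap. For Mir96 they were 4.32 to 9.27 and 12.1 to 24.0 CPM. These intervals cover counting error only. They treat each read as independent, but copies made by PCR are counted as separate reads. All counting intervals given here can therefore be too narrow. By the counting interval of the ratio of replicate 2 over replicate 1, scaled by library size alone as CPM are, all 3 members differed beyond counting error. The log2 ratio of Mir183, the closest to equality, was -0.37 (-0.66 to -0.09). With n = 2, a difference between the animals or samples cannot be told apart from that of preparation or sequencing.

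**Figure D1:**
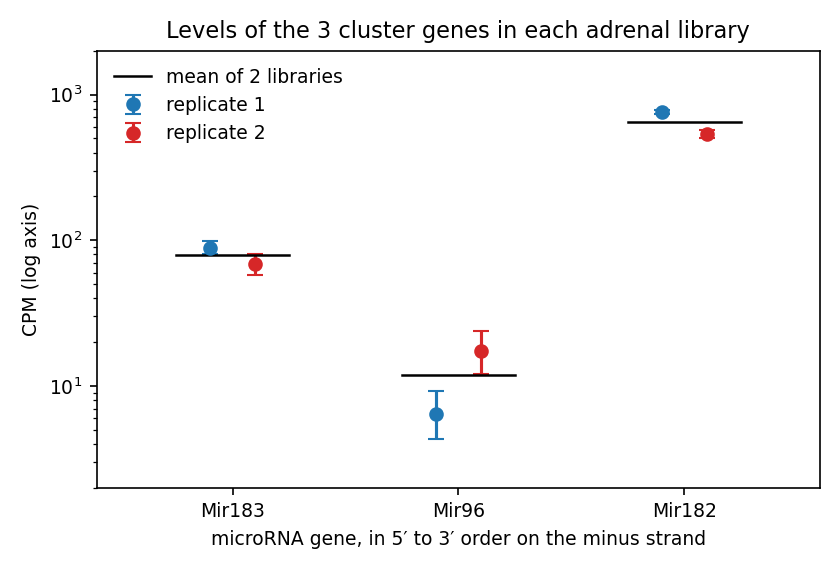
CPM on a log axis of Mir183, Mir96 and Mir182, with 1 point per adrenal library, bars for the exact 95% counting interval and a black line for the mean of the 2 libraries. Mir182 lies at 538 and 756 CPM, Mir183 at 68.8 and 89.0 CPM and Mir96 at 6.45 and 17.3 CPM, with replicate 2 on top for Mir96 alone.

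Among the 749 genes with a count in either library, Mir182 ranked 110 by mean CPM, Mir183 210 and Mir96 298. The median of those genes was 2.94 CPM, and that of the 333 genes with 10 counts in both libraries was 190 CPM. Mir182 was thus above and the other two below the middle of the well-counted genes. The highest gene of the table, Mirlet7b, stood 205-fold above Mir182. The whole cluster held 3828 counts in replicate 1, or 0.0852% of the gene counts (exact 95% interval 0.0825 to 0.0879), and 1297 in replicate 2, or 0.0624% (0.0590 to 0.0659). The mean share was 0.0738% ± 0.0161 (SD, n = 2).

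The opposite strand of each hairpin had 0 counts in both libraries. The column that ignores strand holds the same member counts as the sense column.

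The order Mir182, Mir183, Mir96 was the same in both libraries, and neighbours in it were separated beyond counting error in each. Mir182 made up 88.8% of the cluster's counts in replicate 1 and 86.2% in replicate 2, Mir183 10.4% and 11.0%, and Mir96 0.758% and 2.78%. Mir182 exceeded Mir183 8.50-fold in replicate 1 (exact 95% interval 7.66 to 9.45) and 7.82-fold in replicate 2 (6.56 to 9.37). That proportion was nearly alike in both libraries: the fold in replicate 1 over that in replicate 2 was 1.09, with an interval of 0.881 to 1.34 that includes equality.

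Mir96, the member whose seed is tied to hearing loss, did not keep its proportion to the others. Mir182 exceeded Mir96 117-fold in replicate 1 (81.5 to 175) and 31.1-fold in replicate 2 (22.3 to 44.6). The first fold was 3.77 times the second (exact 95% interval of the odds ratio 2.24 to 6.41). Mir183 exceeded Mir96 13.8-fold (9.46 to 20.9) and 3.97-fold (2.74 to 5.90), a quotient of 3.46 (1.99 to 6.09). Both quotients rest on the 29 and 36 counts of Mir96 and were computed after its values were seen. At the proportion to Mir182 seen in replicate 1, Mir96 would have had 9.54 counts in replicate 2, against 36 counted (exact Poisson 95% interval 25.2 to 49.8).

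Ratios between the libraries are given as replicate 2 over replicate 1 on the log2 scale after TMM scaling, which sets the bulk of genes to an equal level. Each compares these 2 libraries and has no replicate check. Mir182 had a log2 ratio of -0.68 (counting interval -0.78 to -0.58), or 1.60-fold higher in replicate 1. Mir183 had a log2 ratio of -0.56 (-0.84 to -0.28), or 1.47-fold higher in replicate 1. Mir96 went the other way, at 1.24 (0.49 to 2.00), or 2.36-fold higher in replicate 2. The intervals of Mir182 and Mir183 overlap each other, and neither overlaps that of Mir96.

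Differences of this size were common in the table. Of the 333 genes with 10 counts in both libraries, 27.3% were over 2-fold apart, 14.7% of them higher in replicate 2 and 12.6% higher in replicate 1, both as shares of the 333. Of the members, 1 of 3, Mir96, was over 2-fold higher in replicate 2 and none was over 2-fold higher in replicate 1. A single gene past a fold that 27.3% of all genes pass is not a result about the members. With library size alone, which shifts every log2 ratio by 0.19, the counts of genes past 2-fold were 72 and 30 in place of 49 and 42, and the members kept their directions. In the ratios of all 333 genes the median was 0.01 with quartiles at -0.59 and 0.69, and the median of the members was -0.56.

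Genes with low and with high counts passed 2-fold at similar shares. Of 86 genes with a geometric mean below 100 counts, 29.1% were over 2-fold apart, against 26.7% of the 247 genes above it. The counting interval of Mir96 extends below a 2-fold difference, so the call itself is not resolved at this depth. Mir96 had a higher ratio than 87.7% of the 333 genes, Mir183 than 26.4% and Mir182 than 21.3%.

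**Figure D2:**
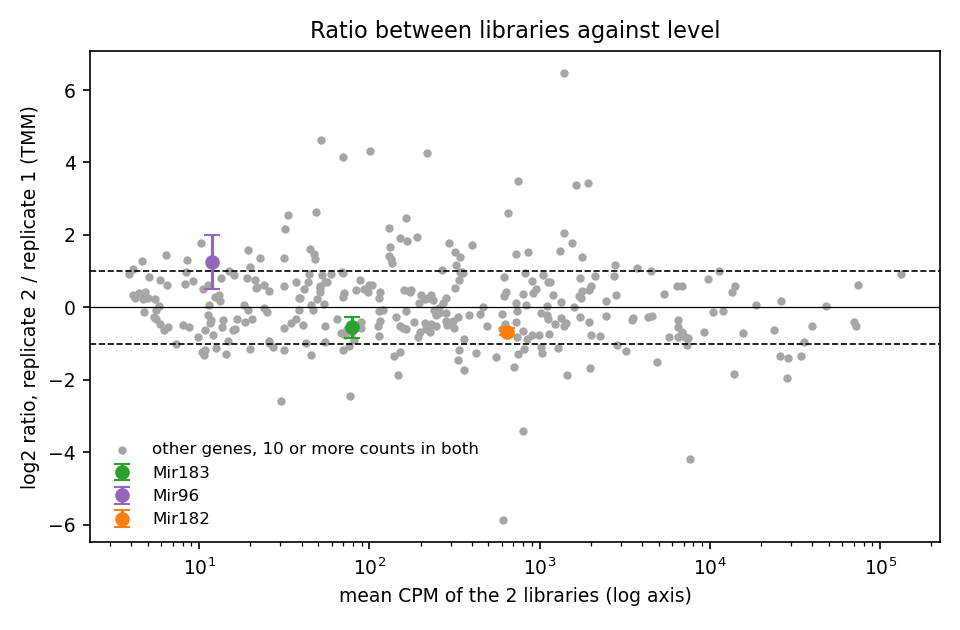
Log2 ratio of replicate 2 over replicate 1 after TMM scaling (vertical axis) against mean CPM on a log axis, for genes with 10 counts in both libraries. Grey points are the other genes, coloured points are members with 95% counting intervals, and dashed lines mark 2-fold. Mir182 and Mir183 sit together at -0.68 and -0.56 inside the lines, and Mir96 at 1.24 above the upper line with an interval that crosses it.

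MicroRNA clusters of this gland often held members at very unequal levels. Same-strand genes within 10 kb of each other were joined, and 17 clusters had 3 or more genes with 10 counts in both libraries. In the miR-183/96/182 cluster the highest member stood 54.4-fold above the lowest by mean CPM, a range of 5.77 on the log2 scale. This was the seventh widest of the 17 (rank 7), and the median of the other 16 was 3.63. Among the clusters of 3 measured genes, wider ranges were found in both clusters of miR-23, miR-27 and miR-24, at 9.30 for the cluster of Mir23b and 6.99 for that of Mir23a, and in the cluster of Mirlet7d at 6.53. Those hold numbered copies such as Mir24-1 and Mir24-2, and reads that fit several copies lie outside the counts. For the miR-183/96/182 cluster, no transcript of another annotated gene held a whole mature strand. The part of shared reads in these ranges was not tested.

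The spread of the library ratios within the cluster was 1.92 on the log2 scale, rank 4 of 17, against a median of 1.56 in the other 16. Among the 11 clusters of exactly 3 measured genes, it and the cluster of Mir669e (1.91) had the widest spreads, ahead of that of Mir23a at 1.84, in an order that the counting interval of Mir96 leaves unresolved. By contrast, the epithelial cluster of Mir429, Mir200a and Mir200b had a spread of 0.36, with all its genes higher in replicate 2. The wide spread of the miR-183/96/182 cluster comes from Mir96 alone, since Mir182 and Mir183 lie 0.12 apart.

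**Figure D3:**
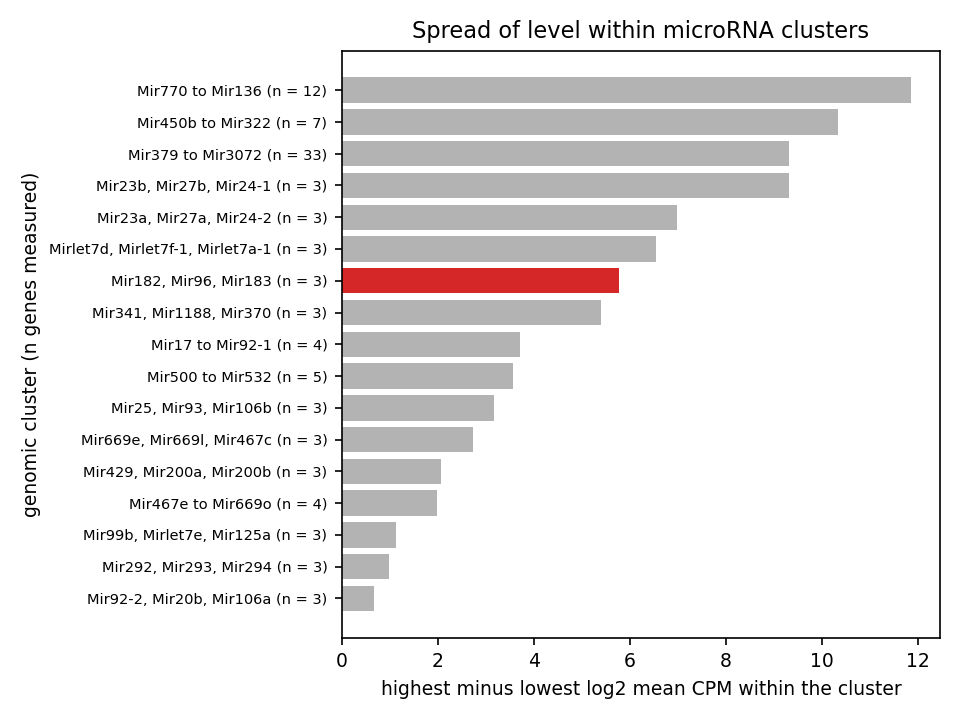
Range of level within each genomic cluster, as the highest minus the lowest log2 mean CPM among its measured genes; n is the number of genes with 10 counts in both libraries. The miR-183/96/182 cluster (red) has a range of 5.77 and rank 7 of the 17 clusters.

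The genes most like each member were taken by the smallest distance in log2 CPM over the 2 libraries. For Mir182 these were Mir376a (688 and 513 CPM, distance 0.15), Mir101b (679 and 565 CPM, 0.17) and Mir497 (893 and 580 CPM, 0.26). For Mir183 they were Mir543 (89.2 and 71.7 CPM, 0.06), Mir224 (93.0 and 65.9 CPM, 0.09) and Mir380 (83.9 and 63.5 CPM, 0.14). For Mir96 they were Mir491 (8.23 and 14.4 CPM, 0.44), Mir3067 (8.90 and 17.8 CPM, 0.47) and Mir3065 (8.01 and 13.0 CPM, 0.52). None of these lies on chromosome 6. Mir96 had no neighbour as close as those of the other members, and likeness over 2 libraries says little beyond level. The nearest microRNA genes on chromosome 6 were Gm23049, 177428 bases away with 0 counts in both libraries, and Mir335, 571561 bases away with 31221 and 9333 counts.

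Markers of the cell types a dissected adrenal gland can hold were read in the same libraries, because the cluster is known from several of them. MicroRNAs give no marker that defines the adrenal gland by itself. The neuroendocrine list, all 4 of whose genes were measured, summed to 48802 and 54157 CPM in replicates 1 and 2. Mir375, a microRNA of endocrine cells, held most of it at 44147 and 51780 CPM. The miR-7 genes, which are also abundant in endocrine tissue, were lower in replicate 2, with log2 ratios of -1.21 for Mir7b, -0.69 for Mir7-1 and -0.40 for Mir7-2. Mir182 and Mir183 had the same direction, and Mir375 was level between the libraries at 0.04. Mir7-1 and Mir7-2 are numbered copies, and a read that fits both was not counted. This limits their values and the sum of the list. Fewer cells of a type, less RNA per cell, and a difference of preparation or sequencing cannot be told apart in these libraries.

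The sensory organ list holds Mir204 and Mir211, known from retinal pigment epithelium and lens or ciliary body. Mir204 had 57.0 and 207 CPM, a log2 ratio of 1.68, and Mir211 had 1 and 0 counts. Of the 8 genes on the neuronal list, 2 had 10 counts in both libraries, Mir137 (775 and 339 CPM, -1.38) and Mir153 (127 and 26.5 CPM, -2.45). The 3 genes for miR-124, the defining microRNA of neurons, had 0 counts in both libraries, although the 3 are copies and a read that fits several of them was not counted. The 3 miR-9 genes, also markers of neurons and their progenitors, had 3 and 0 counts for Mir9-1 and 0 in both libraries for Mir9-2 and Mir9-3. They are copies too, so the same limit holds for them and for the sum of the list. The summed neuronal list, most of it Mir137, was 903 and 366 CPM, a log2 ratio of -1.49 against -0.63 for the summed cluster.

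The libraries differed in epithelial and pancreas acinar markers. The epithelial miR-200 genes summed to 64.7 and 3576 CPM in replicates 1 and 2, with all 5 genes over 2-fold higher in replicate 2. Of the 333 well-counted genes, 14.7% were over 2-fold higher in replicate 2. The 5 epithelial calls are not independent, since Mir429, Mir200a and Mir200b lie in the same genomic cluster. Pancreas acinar genes had 0 counts in replicate 1 and 677 in replicate 2, a list of 4 genes of which Mir216c was at 0 in both. Both lists were higher in replicate 2. Mir96 was the member higher in that library, while Mir182 and Mir183 were lower in it. The source of these counts, and the part of epithelial or pancreatic tissue in the levels of the 3 members, were not tested.

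Other lists moved in both directions. The erythroid genes Mir144, Mir451a and Mir486 summed to 15841 and 1091 CPM, higher in replicate 1 as Mir182 and Mir183 were. Of these, 2 of 3 were over 2-fold higher in replicate 1, against 12.6% of the 333 genes with 10 counts in both libraries. The 4 leukocyte genes summed to 1740 and 1891 CPM, with none over 2-fold apart, against 27.3% of the 333 genes. Of the genes studied in steroid-producing cells, 2 of 4 were over 2-fold higher in replicate 2, against 14.7% of the 333 genes. These were Mir132 (629 and 2465 CPM) and Mir212 (42.3 and 219 CPM). Mir21a had a log2 ratio of 0.78 and Mir382 one of -0.25, and the list summed to 9763 and 17904 CPM. The liver gene Mir122 had 1383 and 2842 CPM. Of the squamous epithelial list, Mir203 had 1551 and 1232 CPM and Mir205 3.11 and 9.62 CPM. Mir31, which is also known from squamous epithelium, is outside that list and was chosen after its values were seen: it had 109 and 1391 CPM, a log2 ratio of 3.49. With Mir31 added, the squamous genes as a whole were higher in replicate 2 and not in replicate 1. The part of these cell types in the members' levels was not tested.

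**Figure D4:**
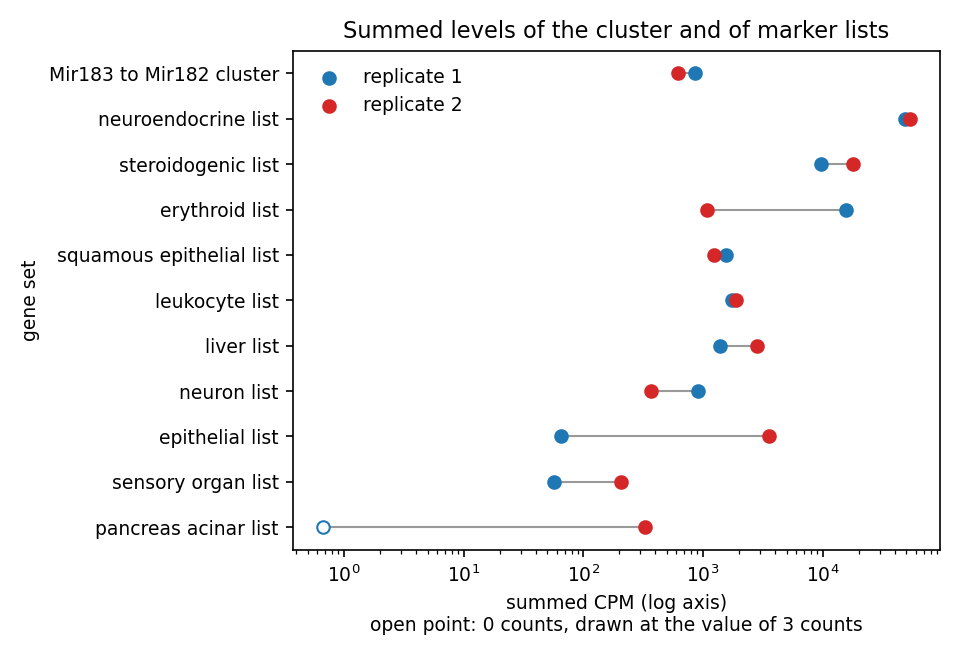
Summed CPM on a log axis of the miR-183/96/182 cluster and of 10 marker lists, with 1 point per library and a grey line joining the 2 libraries. The cluster, most of it Mir182, lies at 852 and 624 CPM. Its points are closer together than those of the epithelial (64.7 and 3576 CPM), erythroid and acinar lists. They are farther apart than those of the neuroendocrine, leukocyte (1740 and 1891 CPM) and squamous epithelial (1554 and 1242 CPM) lists. The open point is a sum of 0 counts drawn at the value of 3 counts.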

How the data were processed

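The authors deposited whole-number counts of reads for each microRNA gene, without regard to strand and for either strand, as the file layout shows. The deposited text names mm10 and GENCODE M21; software for alignment and counting is not given in the sources used. The sense column, file column 3, was used. Rows that name no gene (unmapped, several places, outside genes, ambiguous) were left out and held 26.4%, 29.8%, 7.16% and 0% of 12289288 reads (replicate 1) and 51.9%, 21.5%, 6.46% and 0% of 10323816 (replicate 2). Gene counts summed to 4494857 and 2078824, and CPM were computed from these. TMM (edgeR 4.0.16, R 4.3.3) and DESeq2 1.42.0 size factors used genes with 10 counts in both libraries. With 1 library on each side no test was run and no p-value is given; intervals are exact at 95%. Folding energies came from RNAfold 2.7.2, and other steps from Python 3.11.15 with SciPy 1.17.1. The members, the 10 marker lists (37 genes) and the rule for named genes (members, the 3 nearest genes to each, list genes, seed sharers, the highest gene) were chosen with earlier results of these data known; clusters, Mir335 and other names outside it were chosen after their values were seen. Differences in ligation or PCR between sequences were not corrected, and whether CAST/EiJ alleles alter mapping to mm10 was not tested.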

Additional observations from a re-analysis of the deposited data

How the results depend on the processing

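Across 76 values under alternative settings, 63 stayed within the spread, interval or 1.5 times that marks an unchanged value, and 13 moved; no member changed direction. In the column that ignores strand, whose gene total is smaller, Mir183 rose to 96.7 CPM and the cluster share to 0.0904%. The log2 ratio of Mir182 was -0.49 with library size alone and -0.85 with TMM and no count minimum, both negative. By construction, the count of genes past the fold followed the fold: 180 at 1.5-fold and 20 at 4-fold, of which 96 and 15 were higher in replicate 2 and 84 and 5 in replicate 1. With a single library the fold of Mir182 over Mir96 ranged from 31.1 to 117 and that of Mir183 over Mir96 from 3.97 to 13.8. Including genes with any count, the cluster ranked 12 of 19 by spread of level, since more low genes enter. With neighbours joined within 2 kb, Mir182 falls outside the cluster and no value was obtained. A correction for hairpin GC content, added after seeing the data, gave log2 ratios of -0.51, 1.14 and -0.69 for Mir183, Mir96 and Mir182. The 29 and 36 counts of Mir96 limit every statement on it.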
